A study of Canis lupus familiaris with 8 samples.

Results

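Canine kidney genes that were higher under hyperosmolality, and higher again when the hyperosmotic cells had received siRNA against Nfat5, formed a set of 156 genes among the 32704 of the count table. They were chosen from the measured values: counts were divided by median-of-ratios size factors, group means were put on the scale log2(mean + 1), at least 1 of the 4 group means had to reach 400 normalised counts, and 3 differences each had to be at least 0.5 on that scale. The 3 differences were Neg-siRNA (500 mOsm) minus Neg-siRNA (300 mOsm), called hyperosmolality below, and each of Nfat5-1-siRNA (500 mOsm) and Nfat5-2-siRNA (500 mOsm) minus Neg-siRNA (500 mOsm). CEMIP, HMOX1 and KIF21A also met these limits and were left out by name. Of the 32704 genes, 9951 reached the level of 400 in at least 1 group, and these serve below as the genes for comparison.

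The cells were MDCK I, an epithelial line from dog kidney, and polyadenylated RNA of 8 libraries was sequenced, 2 for each of 4 groups. Neg-siRNA (300 mOsm) had a control siRNA, directed at Slc22a6, whose transcript was not analysed here, in isosmotic medium, Neg-siRNA (500 mOsm) had the same control siRNA with raffinose for the last 24 h, and Nfat5-1-siRNA and Nfat5-2-siRNA had 1 of 2 constructs against Nfat5, construct 1 and construct 2 below, with the same raffinose exposure. All groups received 100 nM siRNA with transfection reagent, and all results below for the constructs are at 500 mOsm. Replicate 1 came from cell passage 15 and replicate 2 from passage 17, values are given in that order, and the libraries held 34564103 to 46043788 counts.

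Nfat5 is the transcription factor that drives the transcription of osmolyte carriers and enzymes when the medium is hypertonic. Kidney epithelial cells accumulate such organic osmolytes to balance the concentrated surroundings of the renal medulla. Genes that need Nfat5 under these conditions are lower when Nfat5 is depleted, whereas the genes described here were selected for being higher.

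The gene annotated next to NQO1, in the place that RefSeq gives to NFAT5, was ENSCAFG00000020254, and the count table does not name it. It had 889 and 971 normalised counts at 300 mOsm and, at 500 mOsm, 3485 and 3164 with Neg-siRNA, 4249 and 3623 for construct 1 and 3029.8 and 3067 for construct 2. Both libraries labelled as construct 1 were above both Neg-siRNA (500 mOsm) libraries. Both labelled as construct 2 were below them, by -0.13 on the log2 scale between group means. This transcript thus gave no check of the construct 1 label and only a small difference for construct 2. The study reports no effect of the Nfat5-siRNAs on Nfat5 mRNA, and lower Nfat5 protein by western blot with each of them. The osmolyte genes AKR1B1, SLC6A6, SLC6A12 and SLC5A3, none of them in the set, had log2 differences of 3.64 to 8.97 for hyperosmolality, -1.27 to -2.19 for construct 1 and -1.42 to -2.05 for construct 2. In edgeR's quasi-likelihood test at a Benjamini-Yekutieli adjusted p under 0.05, all 4 were called higher with hyperosmolality, 3 lower for construct 1 and 4 lower for construct 2. Over the 19835 genes tested, 11.3% were called higher and 9.23% lower with hyperosmolality, 3.4% higher and 4.53% lower for construct 1, and 4.67% higher and 7.38% lower for construct 2. These shares are also the background for the counts of role lists below, whose genes with an identifier all come from the study's list of changed genes.

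Symbols were used for 70 of the 156 genes. The only pairing of identifiers with symbols used here was the study's own list of 989 genes that changed in these same libraries. The study describes the list as genes raised by hyperosmolality and lowered by both Nfat5-siRNAs. By the differences used here, 402 of its genes were higher at 500 mOsm and lower for each of the constructs. Of the others, 210 had the opposite signs and 187 were lower in all 3. Each difference was at least 0.5, with a group mean of at least 400. The list gave a symbol to 860 genes and held 74 of the 156, 4 of them without a symbol. The 86 members without a symbol are given here by Ensembl identifier alone. The role lists were drawn up with the study's list known, and 70 of its 860 genes with a symbol were members. Counts of the named genes by role are for these reasons not independent evidence of a direction or of membership. Of 24 marker genes listed for epithelial, fibroblast, endothelial and white blood cells, only PDGFRA, a growth factor receptor listed for fibroblasts, had an identifier, so the labelled cell type was not checked against its epithelial markers. PDGFRA, not a member, had 1494 and 1295 normalised counts at 300 mOsm and, at 500 mOsm, 2775 and 2245 with Neg-siRNA, 1261 and 1386 for construct 1 and 1168 and 1418 for construct 2. It was called higher with hyperosmolality (0.85), as the members were by the rule, and lower with the constructs (-0.92 and -0.96), where the members were higher, and the part of fibroblast-like cells in the osmotic differences was not tested.

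The rule required every member to be higher at 500 mOsm and higher again with each construct, so the shares and medians that follow describe the selection and are no further result. The 156 genes held 0.564% and 0.482% of all counts at 300 mOsm and, at 500 mOsm, 0.881% and 0.861% with Neg-siRNA, 1.81% and 2.05% for construct 1 and 1.89% and 2.07% for construct 2, with overlap between the constructs. Mitochondrial genes held 5.67% and 6.52% of counts at 300 mOsm and 4.39% and 5.87% with Neg-siRNA (500 mOsm). They held 4.34% and 4.44% for construct 1 and 4.36% and 4.65% for construct 2. Any link with the share of the 156 genes was not tested. The differences from Neg-siRNA (500 mOsm) to each construct share the same 2 control libraries. With hyperosmolality the median difference of the 156 genes was 0.86 on the log2 scale, with quartiles of 0.67 and 1.22. With Nfat5-1-siRNA the median was 0.86 with quartiles of 0.67 and 1.06, and with Nfat5-2-siRNA it was 0.85 with quartiles of 0.68 and 1.18. Over the 9951 genes for comparison the medians were 0.00, -0.00 and -0.06. Against Neg-siRNA (300 mOsm), the median fold was 3.41 for Nfat5-1-siRNA and 3.37 for Nfat5-2-siRNA. In bulk RNA, a change in the number of cells of a kind and a change in RNA per cell cannot be told apart.

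**Figure D1:**
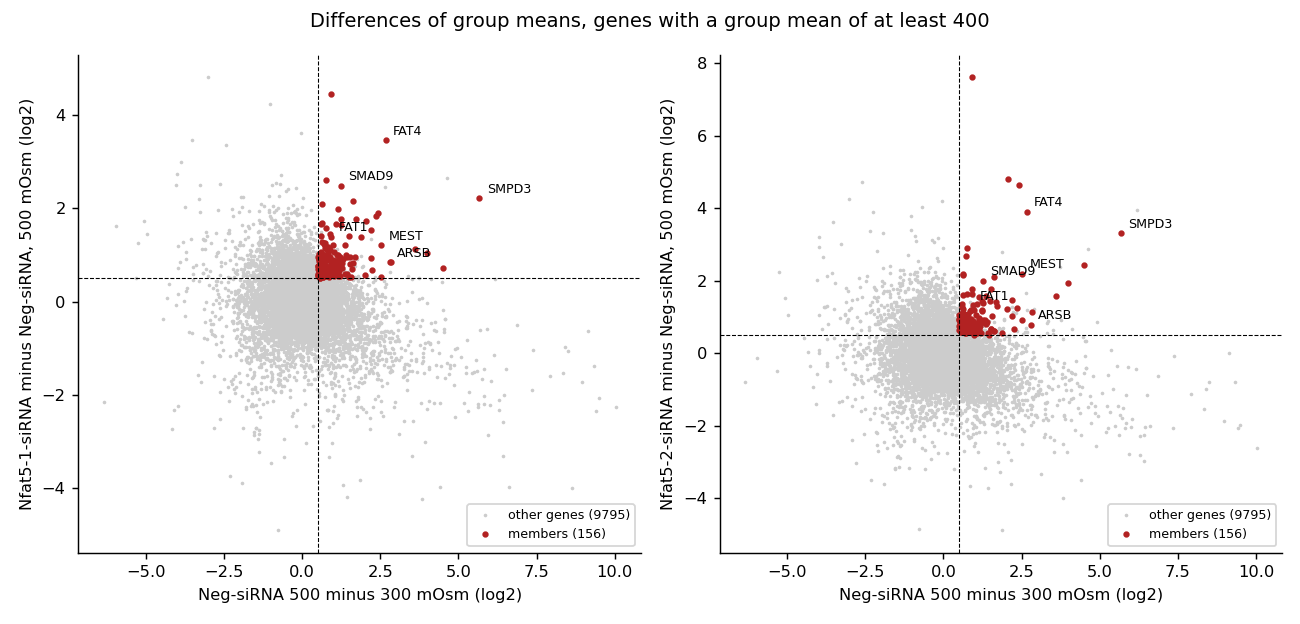
Each point is a gene with a group mean of at least 400 normalised counts, with the hyperosmotic difference on the x axis and the difference with Nfat5-1-siRNA (left) or Nfat5-2-siRNA (right) on the y axis, all log2 of group means + 1. Dashed lines mark 0.5, the 156 members are red, and grey points inside both limits failed the limit of the other construct or are 1 of the 3 genes left out by name.

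Between genes, levels were compared per kilobase of exon. The median of the 156 genes was 240 normalised counts per kb at 300 mOsm and, at 500 mOsm, 443 with Neg-siRNA, 791 for construct 1 and 886 for construct 2. The 9951 genes had medians of 731, 765, 790 and 762 per kb in the same groups. The 156 genes thus lay below the typical gene per kb in both Neg-siRNA groups and near it with the constructs, as values that the choice of genes partly fixes. Their median exonic length of 3092 bases was above the 2507 of the 9951 genes, and 663 genes that were higher with both constructs but within 0.5 of no osmotic difference had a median of 3253 bases. The number of exons did not set them apart, with a median of 10 in both.

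**Figure D2:**
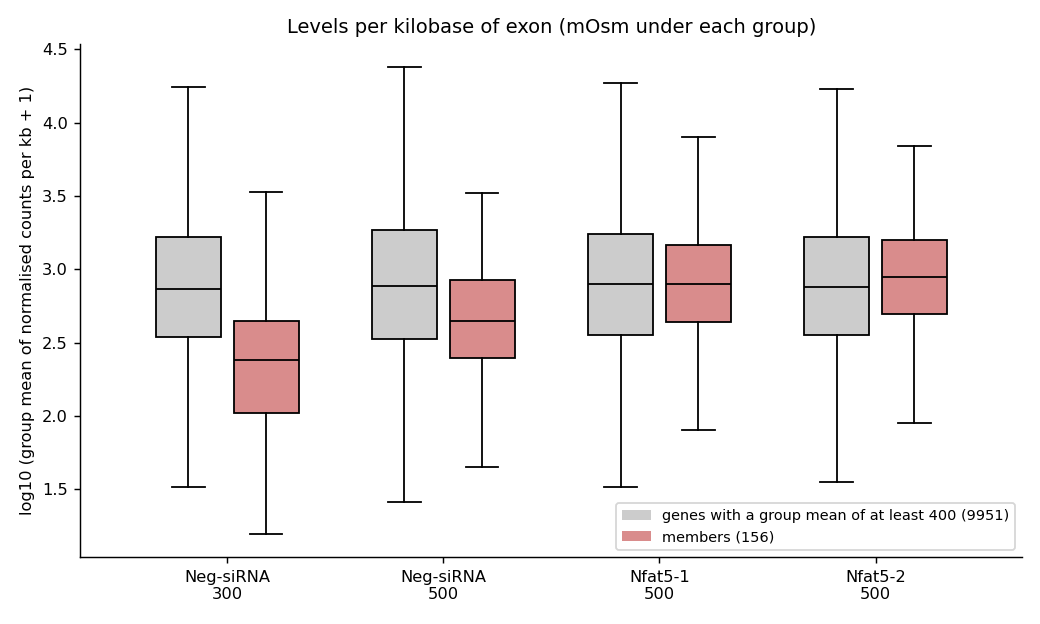
Boxes show the quartiles and median of the level per kilobase of exon on a log10 scale in the 4 groups, whiskers reach 1.5 times the box height and values beyond are not drawn. The red boxes of the 156 members climb from a median of 240 to 886 normalised counts per kb, and the grey boxes of all 9951 genes stay between 731 and 790.

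Each gene's libraries were mostly in the order that the group means gave. In 149 of the 156 genes both Neg-siRNA (300 mOsm) libraries were below both Neg-siRNA (500 mOsm) libraries, and these were below all 4 Nfat5-siRNA libraries, against 760 of the 9951 genes (7.64%). Since the group means chose the genes, nothing is read from that difference. All 3 differences were positive within passage 15 in 154 genes and within passage 17 in all 156, and all 3 were at least 0.5 in 96 genes in passage 15, 134 in passage 17 and 81 in both.

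**Figure D3:**
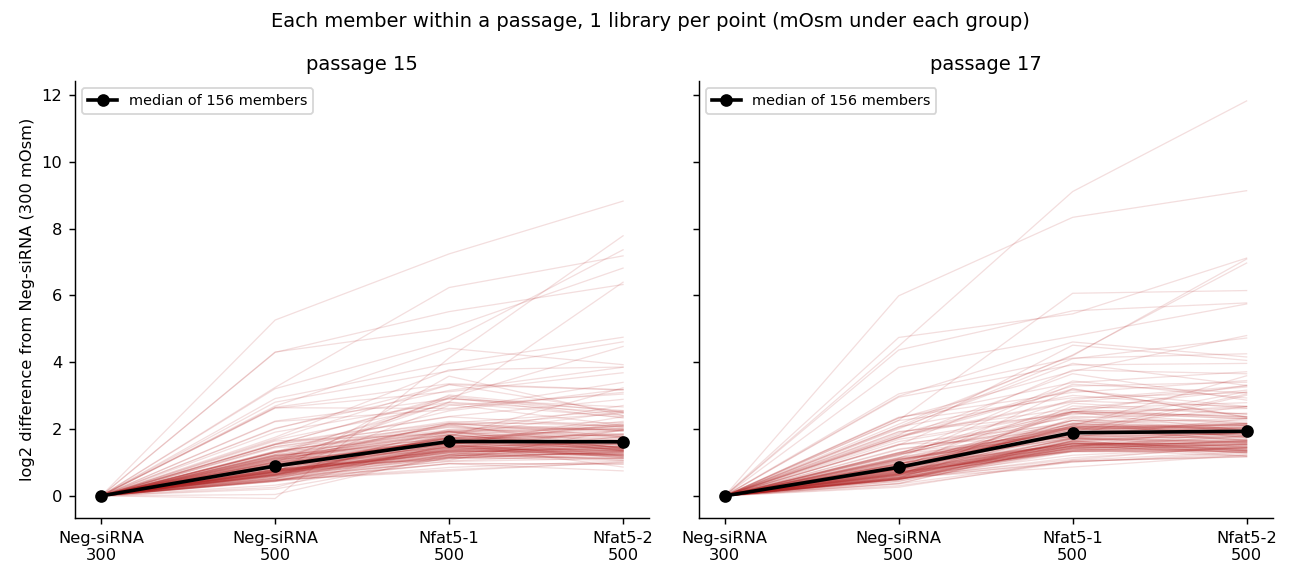
Each thin line is 1 of the 156 members within passage 15 (left) or passage 17 (right), as the log2 difference of a library from the Neg-siRNA (300 mOsm) library of the same passage, and the black line is their median. All 3 steps from the rule were positive for 154 members in passage 15 and for 156 in passage 17.

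For the 3 differences that chose the genes, test results serve as a description only. With hyperosmolality 94 of the 156 genes were called higher by edgeR's quasi-likelihood test at a Benjamini-Yekutieli adjusted p under 0.05, beside 11.3% of the 19835 genes tested, and 145 were with passage as a block, beside 17.3%. With Nfat5-1-siRNA the counts were 63, beside 3.4%, and 145 with the block, beside 9.61%. With Nfat5-2-siRNA they were 73, beside 4.67%, and 148 with the block, beside 10.7%. In all 3 comparisons at once 23 genes were called higher, beside 0.156%, and 131 with the block, beside 0.913%. The osmotic count fell to between 45 and 61 without any 1 of the 4 Neg-siRNA libraries. The count with Nfat5-1-siRNA fell without any 1 library of that group or of Neg-siRNA (500 mOsm). The count with Nfat5-2-siRNA fell without any 1 library of the 3 groups at 500 mOsm, of either passage.

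Cell adhesion was represented by a pair of giant cadherins, FAT1 and FAT4, which span the membrane and take part in cell contact and planar polarity. FAT1 (ENSCAFG00000007273, chr16:44113051-44284761) had 10056 and 8851 at 300 mOsm and, at 500 mOsm, 20493 and 15553 with Neg-siRNA, 44845 and 49414 for construct 1 and 46096 and 44149 for construct 2. No library of one step overlapped the next, and the 4 construct libraries lay within a narrow range. Its differences were 0.93 for hyperosmolality, 1.39 for construct 1 and 1.32 for construct 2 on the log2 scale. FAT4 (ENSCAFG00000003962, chr19:15155137-15332045) had 7.34 and 15.8 at 300 mOsm and, at 500 mOsm, 78.2 and 79.7 with Neg-siRNA, 628 and 1123 for construct 1 and 1213 and 1189 for construct 2. It was low in isosmotic cells and had the largest smallest-difference of any member, with 2.67 for hyperosmolality, 3.45 for construct 1 and 3.91 for construct 2. Per kb, FAT4 still reached only 46.8 normalised counts with Nfat5-1-siRNA and 64.1 with Nfat5-2-siRNA, against 2783 and 2665 for FAT1. Of 27 listed Fat and Hippo pathway genes, 4 had an identifier, and the other two, TEAD2 and AMOTL2, were not in the set, with differences of 0.83, -1.35 and -1.49 for TEAD2, a DNA-binding partner of YAP, and of -2.15, 1.02 and 1.73 for AMOTL2, an angiomotin-like scaffold.

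**Figure D4:**
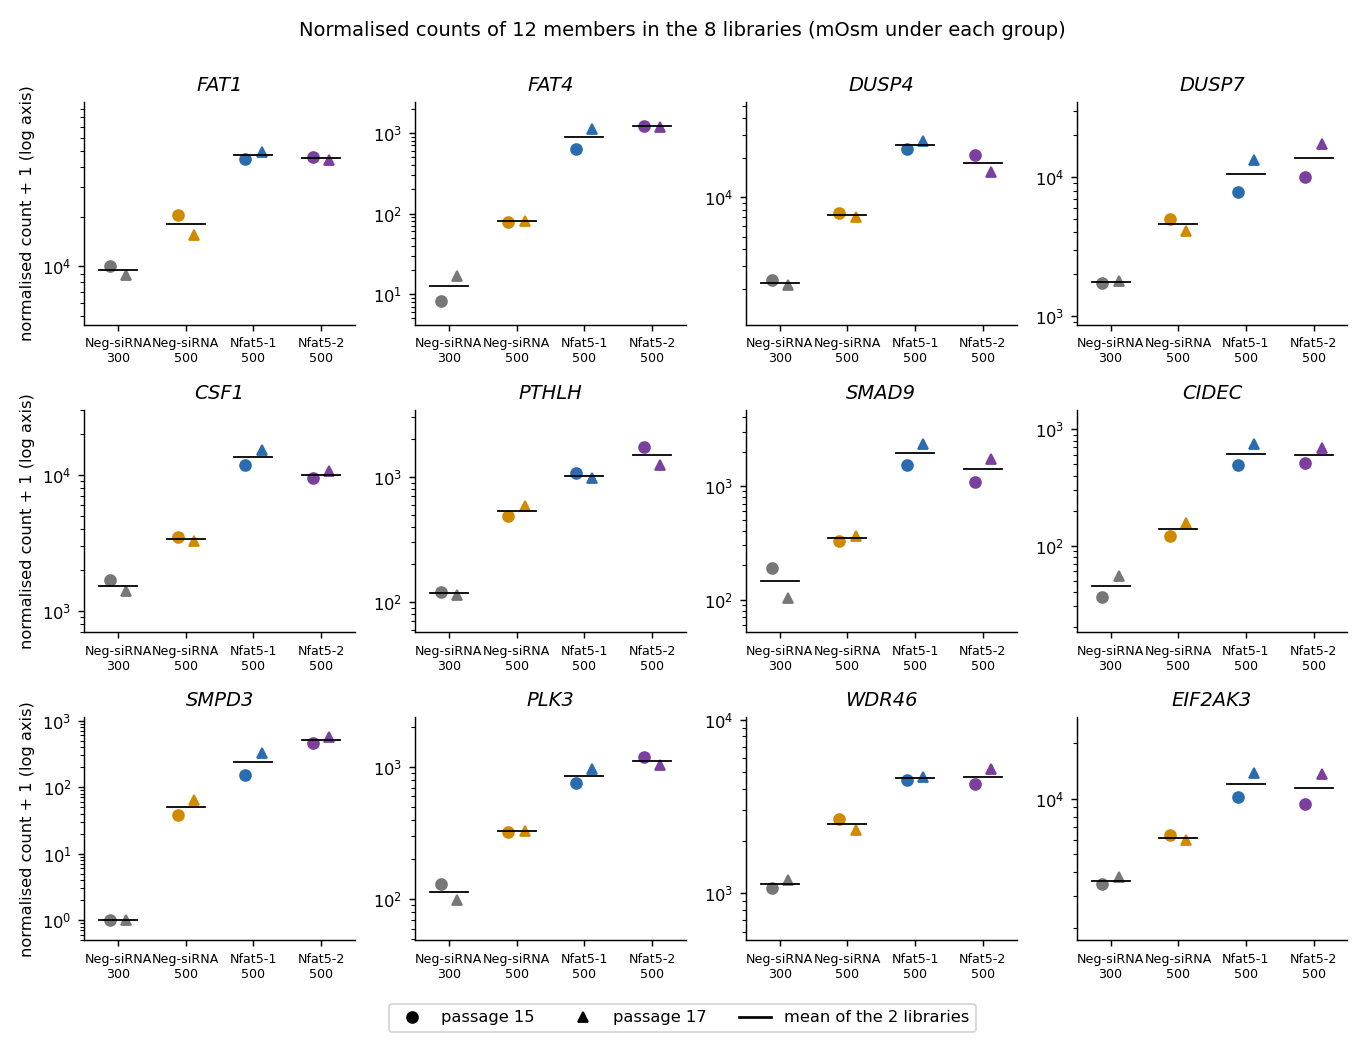
Normalised counts + 1 on a log axis for 12 members in the 8 libraries, with circles for passage 15, triangles for passage 17 and a line at the mean of the 2 libraries. In every panel both Neg-siRNA (300 mOsm) libraries lie lowest and all 4 Nfat5-siRNA libraries lie above both Neg-siRNA (500 mOsm) libraries.

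Both MAP kinase phosphatases with an identifier, of 20 listed phosphatases and feedback inhibitors, were members, beside 70 of all 860 genes with a symbol. DUSP4 (ENSCAFG00000030240, chr16:34801120-34817289), a nuclear phosphatase of MAP kinases, had 2334 and 2117 at 300 mOsm and, at 500 mOsm, 7624 and 7093 with Neg-siRNA, 23449 and 26728 for construct 1 and 21009 and 15439.6 for construct 2. Its isosmotic, Neg-siRNA (500 mOsm) and construct libraries were far apart, and both constructs were above both Neg-siRNA (500 mOsm) libraries. The constructs lay nearer each other, with 23449 and 21009 as their closest libraries. The differences were 1.72 for hyperosmolality, 1.77 for construct 1 and 1.31 for construct 2. DUSP7 (ENSCAFG00000032027, chr20:37675326-37683422), which dephosphorylates ERK in the cytoplasm, had 1725 and 1781 at 300 mOsm and, at 500 mOsm, 5017 and 4095 with Neg-siRNA, 7804 and 13175 for construct 1 and 10093 and 17432 for construct 2. In both constructs the passage 17 library was the higher one, and its group means stood 2.60-fold for hyperosmolality, 2.30-fold for construct 1 and 3.02-fold for construct 2. Other signalling genes of the set were PDE4D, which hydrolyses cyclic AMP (1.25, 1.78 and 1.43), NF1, a Ras GTPase-activating protein (0.71, 0.88 and 0.64), and GPRC5B, an orphan receptor (1.00, 1.22 and 0.81).

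Secreted ligands and a binding protein made up the next group, 3 of the 5 genes with an identifier among 30 listed. CSF1 (ENSCAFG00000019798, chr6:42028059-42045409), the growth factor of macrophages, had 1675 and 1391 at 300 mOsm and, at 500 mOsm, 3522 and 3277 with Neg-siRNA, 11728 and 15098 for construct 1 and 9446 and 10613 for construct 2. The construct libraries did not overlap any Neg-siRNA library, and the differences were 1.15 for hyperosmolality, 1.98 for construct 1 and 1.56 for construct 2. PTHLH (ENSCAFG00000010955, chr27:19781557-19795147), parathyroid hormone-related protein, had 119 and 113 at 300 mOsm and, at 500 mOsm, 488 and 582 with Neg-siRNA, 1071 and 976 for construct 1 and 1734 and 1246 for construct 2. Its osmotic difference of 2.19 was larger than its differences of 0.93 and 1.48 with the constructs. IGFBP4 (ENSCAFG00000016071, chr9:22170572-22181798), which binds insulin-like growth factors, had 268 and 312 at 300 mOsm and, at 500 mOsm, 779 and 599 with Neg-siRNA, 2129 and 2141 for construct 1 and 1417 and 1708 for construct 2. The 3 IGFBP4 differences were 1.24, 1.63 and 1.18. Of the remaining genes, VEGFA, which drives vessel growth, was higher with hyperosmolality and lower with the constructs (2.11, -0.72 and -0.82), and WNT7B, a Wnt ligand, had the opposite signs (-1.40, 1.27 and 1.86).

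Transcription factors of the set included SMAD9 and GATA2. SMAD9 (ENSCAFG00000006162, chr25:3779197-3844672), which carries signals of BMP receptors to the nucleus, had 187 and 102 at 300 mOsm and, at 500 mOsm, 329 and 362 with Neg-siRNA, 1526 and 2349 for construct 1 and 1077 and 1713 for construct 2. Every construct library was well above every Neg-siRNA library, with differences of 1.25, 2.48 and 2.01. Of 36 listed BMP and TGF-beta genes 4 had an identifier: SMAD1, the close relative of SMAD9, had differences of 1.39, -0.73 and -0.99, TGFB1 of 1.16, -0.71 and -0.66, and ID3, a target of BMP signalling, of -1.96, 2.25 and 1.85. GATA2, a zinc finger factor, had 662 and 702 at 300 mOsm and, at 500 mOsm, 1566 and 1295 with Neg-siRNA, 4994 and 4068 for construct 1 and 3896 and 3475 for construct 2. No step overlapped the next, with differences of 1.07, 1.66 and 1.36. MYC, the only gene with an identifier among 23 listed growth factor-induced transcription factors, was outside the set with differences of -1.92, 2.03 and 3.32.

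Lipid genes divided. CIDEC (ENSCAFG00000005266, chr20:8386258-8402286), which enlarges lipid droplets, had 34.9 and 53.4 at 300 mOsm and, at 500 mOsm, 120.0 and 155 with Neg-siRNA, 489.9 and 741 for construct 1 and 518 and 685 for construct 2. All 4 construct libraries were above all Neg-siRNA libraries, and the differences were 1.62, 2.15 and 2.12. PLIN2 (ENSCAFG00000001601, chr11:38939371-38959223), which coats lipid droplets, was among the 3 named members with the highest level per kb in Neg-siRNA (500 mOsm), with 3311 normalised counts per kb, and had 5374 and 4806 at 300 mOsm and, at 500 mOsm, 9033 and 8436 with Neg-siRNA, 13924 and 13464 for construct 1 and 16530.5 and 20285 for construct 2. PLPP3, a phosphatase of lipid phosphates at the cell surface, had 564 and 555 at 300 mOsm and, at 500 mOsm, 867 and 1225 with Neg-siRNA, 1619.5 and 2280.2 for construct 1 and 2919 and 3552 for construct 2. The 4 other genes with an identifier among 24 listed, DGAT2, PLPP1, LPIN1 and LPIN3, had differences of 0.76 to 1.76 for hyperosmolality, -0.88 to -2.27 for construct 1 and -1.28 to -2.48 for construct 2, so that PLPP1 and PLPP3, which act on the same kind of substrate, had opposite signs with the constructs. Over the list 6 genes were called higher with hyperosmolality, 1 higher and 3 lower for construct 1, and 3 higher and 4 lower for construct 2, against all-gene shares of 11.3%, then 3.4% and 4.53%, then 4.67% and 7.38%.

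SMPD3 (ENSCAFG00000020310, chr5:81142888-81169331), a neutral sphingomyelinase that releases ceramide, had 0 and 0 at 300 mOsm and, at 500 mOsm, 37.4 and 62.6 with Neg-siRNA, 151 and 323 for construct 1 and 453 and 562 for construct 2. No read was counted for it in isosmotic cells, and against a floor of 3 counts per library its mean in Neg-siRNA (500 mOsm) was at least 15.6-fold higher. Counts of 2 were more frequent in the table than counts of 1 (8508 against 7419 entries), and if the mates of a read pair were counted separately, 3 counts are fewer than 3 fragments and the bound is lower. The differences with the constructs were 2.22 and 3.32, and its osmotic difference on the log2(mean + 1) scale depends on the added 1. Other lipid and lysosomal members were ARSB, a lysosomal sulfatase, at 2.80, 0.84 and 0.79, DDHD1, a phospholipase, at 1.39, 0.99 and 0.85 and OSBPL11, an oxysterol-binding protein relative, at 0.76, 0.58 and 0.70. For ARSB, the osmotic step from 618 and 498 to 3894 and 3869 normalised counts was the larger part.

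Genes of ribosome production divided by their osmotic difference. Of 103 listed ribosome biogenesis factors 11 had an identifier, and 6 of these were members: WDR46, RBM28, DHX33, ISG20L2, NOP9 and DDX27, nucleolar or nuclear proteins that process ribosomal RNA or its precursors. WDR46 (ENSCAFG00000000954, chr12:2721433-2729161) had 1073 and 1190.4 at 300 mOsm and, at 500 mOsm, 2675 and 2313 with Neg-siRNA, 4502 and 4693 for construct 1 and 4235 and 5166 for construct 2. DHX33, an RNA helicase, had 1895 and 1832 at 300 mOsm and, at 500 mOsm, 2993 and 2843 with Neg-siRNA, 5238 and 6121 for construct 1 and 5771 and 6671 for construct 2. Neither gene had overlapping steps, and over the 6 members the differences ran from 0.53 to 1.14 for hyperosmolality, 0.53 to 0.96 for construct 1 and 0.60 to 1.09 for construct 2. The other 5, NOP58, UTP3, DDX56, FTSJ3 and RRP8, had positive differences with both constructs too, of 0.75 to 1.91 and 1.00 to 2.25, but differences of -0.64 to -0.93 with hyperosmolality. Over the 11 genes, 5 were called higher and 5 lower with hyperosmolality, 8 were called higher for construct 1 and 10 for construct 2, and none was called lower with a construct, beside shares over all genes of 11.3% higher and 9.23% lower with hyperosmolality and of 3.4% and 4.67% higher with the constructs.

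Genes for the making and use of other RNAs followed. POLR3A (ENSCAFG00000015546, chr4:27836041-27883436), the largest subunit of RNA polymerase III, had 1220.0 and 979 at 300 mOsm and, at 500 mOsm, 2198 and 1741 with Neg-siRNA, 4077 and 4725 for construct 1 and 4263 and 4639.9 for construct 2. Its differences were 0.84, 1.16 and 1.18, while POLR3D, another subunit, and GTF3C6, of the factor that brings the polymerase to its genes, were lower with hyperosmolality (-0.73 and -0.95) and higher with both constructs (0.87 to 1.47). They were the 3 genes with an identifier among 34 listed for RNA polymerases I and III. All 3 genes with an identifier among 47 listed for tRNA and translation factor modification were members, beside 70 of all 860 genes with a symbol. DPH3, needed to make diphthamide on elongation factor 2, had differences of 1.03, 1.05 and 1.05. TSEN54, of the tRNA splicing endonuclease, had 0.93, 0.81 and 0.89, and TRMT6, of a tRNA methyltransferase, had 0.59, 0.82 and 0.97. AGO3, an Argonaute protein and the only gene with an identifier among 13 of RNA silencing, had 0.73, 1.25 and 1.05, and SMG5, of nonsense-mediated decay, had 1.02, 0.75 and 0.60.

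HEXIM1 (ENSCAFG00000024148, chr9:18386209-18387336), which holds the elongation factor P-TEFb inactive and was the only 1 of 19 listed P-TEFb and pausing genes with an identifier, had 1638 and 1503 at 300 mOsm and, at 500 mOsm, 3291 and 2528 with Neg-siRNA, 6130.0 and 6415 for construct 1 and 5215 and 6039 for construct 2. Its differences were 0.89, 1.11 and 0.95 with no overlap between steps. KMT2D, a histone H3 lysine 4 methyltransferase and the only 1 of 18 listed histone methyltransferases with an identifier, had differences of 0.69, 0.68 and 0.62.

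Stress and cell cycle genes were represented by EIF2AK3, the p53 targets and CCND2. EIF2AK3 (ENSCAFG00000007383, chr17:37886601-37950724), the PERK kinase that slows translation when unfolded proteins load the endoplasmic reticulum, had 3445 and 3763 at 300 mOsm and, at 500 mOsm, 6331 and 5957 with Neg-siRNA, 10189 and 13765 for construct 1 and 9346 and 13618 for construct 2. Its differences were 0.77, 0.96 and 0.90, and the other genes with an identifier among 29 listed for the unfolded protein and integrated stress responses, EIF2AK2 (-1.58, 0.84 and 0.75) and CRELD2 (1.98, -0.89 and -0.68), had other patterns. All 3 p53 targets with an identifier, of 25 listed, were members, beside 70 of all 860 genes with a symbol. PLK3 (ENSCAFG00000004713, chr15:15519360-15524028), a stress-responsive kinase, had 129 and 97.2 at 300 mOsm and, at 500 mOsm, 319 and 330.0 with Neg-siRNA, 759.5 and 958 for construct 1 and 1191 and 1037 for construct 2. TIGAR, a phosphatase that lowers glycolysis, had 1615 and 2037 at 300 mOsm and, at 500 mOsm, 4478 and 4351 with Neg-siRNA, 6954 and 7519.7 for construct 1 and 8949.5 and 7649 for construct 2. All steps were separate in both genes, with differences of 1.51, 1.40 and 1.78 for PLK3 and 1.27, 0.71 and 0.91 for TIGAR, and ZMAT3, an RNA-binding zinc finger protein, had 0.91, 0.76 and 0.64. CCND2, cyclin D2, had 6289 and 7167 at 300 mOsm and, at 500 mOsm, 13654 and 11722 with Neg-siRNA, 21756 and 20078 for construct 1 and 22439 and 17642 for construct 2.

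TIGAR and CCND2 are neighbours: TIGAR lies at chr27:40521163-40549314 and CCND2 at chr27:40567736-40594271 on the same strand, with 18421 bases between them. JAGN1, a protein of the endoplasmic reticulum at chr20:8371085-8376910, lies 9347 bases from CIDEC on the opposite strand, and had differences of 0.72, 0.72 and 0.68. These were among 5 pairs of members with no other gene of the 9951 between them. The 156 genes lay on 34 chromosomes, and 18 of them (11.5%) shared exonic bases with another gene, against 11.4% of the 9951. Reads were counted without regard to strand, so for such genes, which include DUSP4, MEST, TSEN54, TRMT6, NOP9, DDX27, TRAK2 and KMT2D, reads of an overlapping gene cannot be told apart.

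Microtubule and transport genes were CAMSAP2, which caps the minus ends of microtubules (0.71, 0.95 and 0.77), KLC2, a kinesin-1 light chain (1.21, 0.54 and 0.57), and TRAK2, an adaptor that links kinesin to mitochondria (0.78, 0.95 and 0.80). They were 3 of the 4 genes with an identifier among 21 listed, and the fourth, MAPRE2, a plus-end binding protein, met the limits on the 3 differences (3.35, 1.54 and 1.36) but stayed just under a group mean of 400, with 397 and 403 normalised counts in Nfat5-1-siRNA. AMD1 (ENSCAFG00000003905, chr12:67433234-67451696), the S-adenosylmethionine decarboxylase of polyamine synthesis and the only 1 of 13 listed polyamine genes with an identifier, had 1754 and 1546 at 300 mOsm and, at 500 mOsm, 3444 and 2639 with Neg-siRNA, 7735 and 8821 for construct 1 and 4653 and 5996 for construct 2. DMXL2, which takes part in the assembly of the proton pump of acidic vesicles, had 56.9 and 76.5 at 300 mOsm and, at 500 mOsm, 372 and 317 with Neg-siRNA, 1236 and 1212 for construct 1 and 880.1 and 766 for construct 2. Both Nfat5-1-siRNA libraries were above both Nfat5-2-siRNA libraries in AMD1 and in DMXL2, and every construct library was above every Neg-siRNA library. None of 5 NRF2 targets with an identifier, of 20 listed, was in the set, though HMOX1, heme oxygenase 1, would be one if it had not been left out by name (2.64, 2.46 and 1.68). NQO1, ME1 and PIR of that list had differences of 1.01 to 3.08 with hyperosmolality and of -0.84 to -1.92 with the constructs, and TKT had -0.57, -0.65 and -0.62. Over the 5 genes, 4 were called higher with hyperosmolality (11.3% of all genes), and with each construct 1 was called higher (3.4% and 4.67%) and 3 lower (4.53% and 7.38%).

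Further named members had all 3 differences between 0.54 and 1.68. They were ABL2, a tyrosine kinase, FLCN, folliculin, DPP9, a dipeptidyl peptidase, the F-box proteins FBXO11 and FBXO38, the ubiquitin-conjugating enzyme UBE2Q1, the deubiquitinase USP35, the helicase IGHMBP2, NAA25, of an N-terminal acetyltransferase, ZFR, BOD1L1, CLEC16A, WDR81, LRFN4, FRMD8, TMCC2, GFOD1, FAM171A1, ZNF365, ZBED9, HMGXB3, GSTCD and NUDT19. ABL2 was the one with the largest osmotic difference, at 1.68, 0.95 and 1.42, and LRFN4, a synaptic adhesion protein, the one with the largest difference with Nfat5-1-siRNA, at 0.70, 1.26 and 0.89.

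Among the genes without a symbol, the largest smallest-differences belonged to an overlapping pair on opposite strands of chromosome 17. ENSCAFG00000031502, at chr17:61992774-61995722, had 4.59 and 18.2 at 300 mOsm and, at 500 mOsm, 50.7 and 79.7 with Neg-siRNA, 138 and 357 for construct 1 and 922 and 2412 for construct 2. ENSCAFG00000028542, at chr17:61994292-61995458, had 3.67 and 6.07 at 300 mOsm and, at 500 mOsm, 16.5 and 30.3 with Neg-siRNA, 31.7 and 129 for construct 1 and 393 and 963 for construct 2. Both were several times higher with Nfat5-2-siRNA than with Nfat5-1-siRNA, and since strand was not used in counting, the 2 genes cannot be counted as separate observations. ENSCAFG00000002142, named here after its values were seen, had 73.4 and 2.43 at 300 mOsm and, at 500 mOsm, 69.4 and 75.7 with Neg-siRNA, 1299 and 1896 for construct 1 and 16429 and 12442 for construct 2. It had the largest differences of the set with both constructs (4.44 and 7.62), but its Neg-siRNA (300 mOsm) libraries were 73.4 and 2.43, so that its osmotic difference of 0.92 rested on 1 library and was -0.08 within passage 15.

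The sizes of the osmotic and construct differences were not ordered one way. In 60 genes both construct differences were larger than the osmotic one, as in FAT1, FAT4, CSF1 and SMAD9, in 62 the osmotic one was the largest, as in PTHLH, MEST, TIGAR and ARSB, and in 34 it lay between them. All 3 differences reached 1 in 19 genes. At the threshold, 56 members had a smallest difference under 0.6, the nearest at 0.50, and 134 further genes had a smallest difference from 0.4 to just under 0.5. DDX27 and NOP9, each with a smallest difference of 0.53, were the named members nearest to the limit, and TFIP11, a splicing factor at 0.74, 0.49 and 0.65, was the nearest named gene outside.

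The difference between the constructs was tested over all 19835 genes. It is not independent of the choice of genes, since the rule set a lower limit on both construct means, and 5 of the 156 genes reached the level of 400 in Nfat5-2-siRNA alone and 3 in Nfat5-1-siRNA alone, so the counts of members called are a description. With edgeR's quasi-likelihood test and Benjamini-Yekutieli adjustment, 0 of the 156 genes were called higher (0.0302% of all genes tested) and 0 lower (0.0101%) with Nfat5-2-siRNA than with Nfat5-1-siRNA. At an unadjusted p under 0.05, 17 were higher (7.01% of all genes tested) and 10 lower (7.9%), and DESeq2 called 4 higher and 1 lower, beside 1.03% and 0.62% of the 12913 genes to which it gave an adjusted p. The count of genes called higher was 3 without replicate 1 of Neg-siRNA (300 mOsm) and 1 without its replicate 2. Nfat5-2-siRNA had the higher mean in 80 genes and Nfat5-1-siRNA in 76. On simulated counts the same test recovered 34% of 2-fold changes and 99.5% of 4-fold changes, so a difference of 2-fold between constructs would often have been missed. The simulation gave every gene the same dispersion and no passage effect, and changed no genes of low count. Recovery in genes that vary more can be lower. Larger differences could be missed too: ENSCAFG00000002142 had a fitted log2 difference of 3.15 and was not called.

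With passage as a block, 13 of the 156 genes (8.33%) were called higher and 5 (3.21%) lower with Nfat5-2-siRNA, beside 2.39% and 2.55% of all genes tested and 3.58% and 4.91% of the 9951 genes for comparison. Of the 13, 4 had reached the level of 400 in Nfat5-2-siRNA alone, and of the 5, 1 had reached it in Nfat5-1-siRNA alone, so that the limit itself favoured the direction in these genes. SMPD3 was among the 4, and its values of 151 and 323 normalised counts in Nfat5-1-siRNA and 453 and 562 in Nfat5-2-siRNA are given with no test. MEST (ENSCAFG00000001450, chr14:6436934-6449135), an imprinted gene of the alpha/beta hydrolase family, differed by 0.95 ± 0.16 (SE, edgeR with block, adjusted p = 2.95e-05), and had 58.7 and 93.5 at 300 mOsm and, at 500 mOsm, 416 and 472 with Neg-siRNA, 796 and 1254 for construct 1 and 1459 and 2632 for construct 2. PLPP3 differed by 0.72 ± 0.14 (SE, edgeR with block, adjusted p = 0.00103). AMD1 was lower with Nfat5-2-siRNA, at -0.66 ± 0.13 (SE, edgeR with block, adjusted p = 0.00157), and DUSP4 too, at -0.50 ± 0.13 (SE, edgeR with block, adjusted p = 0.0477). In each of MEST, PLPP3, AMD1 and DUSP4 the libraries of one construct were all on one side of those of the other. Without the block none of these genes was called. Like SMPD3, the pair of identifiers on chromosome 17 described above had reached the level in Nfat5-2-siRNA alone, with blocked differences of 2.72 and 3.16. ENSCAFG00000002142, with 3.12, had reached it with both constructs.

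**Figure D5:**
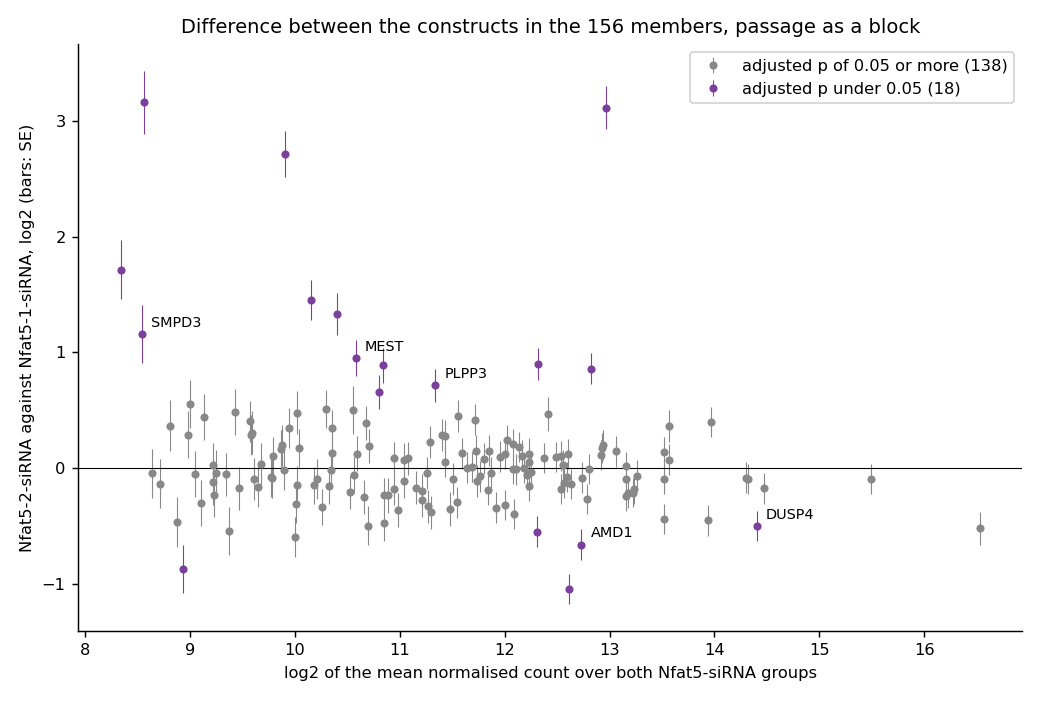
Each point is 1 of the 156 members, with the mean level over both Nfat5-siRNA groups on the x axis and the log2 difference of Nfat5-2-siRNA from Nfat5-1-siRNA on the y axis, from edgeR with passage as a block and with bars for the SE. The 18 purple points had an adjusted p under 0.05, 13 of them above 0 and 5 below, and the 5 with a symbol are named. Of the 13, 4 had reached the level limit in Nfat5-2-siRNA alone, SMPD3 among them. Of the 5 below 0, 1 had reached it in Nfat5-1-siRNA alone. In these genes the limit itself favoured the direction, so their calls are not read as a result.

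Passage 17 against passage 15, a difference that was not part of the rule, holds passage and anything else that differed between the replicate sets. In edgeR with group and passage, 9 of the 156 genes were called higher in passage 17 (1.28% of all genes tested and 2.26% of the 9951) and 3 lower (2.02% and 3.57%). Of the named genes, MEST was higher by 0.60 ± 0.12 (SE, edgeR, adjusted p = 0.00228) and ABL2 by 0.47 ± 0.10 (SE, edgeR, adjusted p = 0.00438). ABL2 had 379.8 and 437 at 300 mOsm and, at 500 mOsm, 1129 and 1493 with Neg-siRNA, 1977 and 3081 for construct 1 and 2823 and 4197 for construct 2. In both genes the passage 17 library was the higher one in all 4 groups, but the call of ABL2 was lost without any 1 library of the 3 groups at 500 mOsm, and that of MEST without either Nfat5-2-siRNA library. Without replicate 1 or 2 of Neg-siRNA (300 mOsm), 18 or 19 members were called higher, without either Nfat5-2-siRNA library 5 were, and without either Nfat5-1-siRNA library 6 were called lower.

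In the 156 genes the passage difference had a negative median without the constructs and a positive one with them. The median of passage 17 minus passage 15 was -0.06 at 300 mOsm and, at 500 mOsm, -0.08 with Neg-siRNA, 0.18 for construct 1 and 0.18 for construct 2, beside -0.01, -0.05, 0.01 and 0.03 over the 9951 genes. The median difference with Nfat5-1-siRNA was accordingly 0.73 in passage 15 and 0.97 in passage 17, and with Nfat5-2-siRNA 0.73 and 1.01, while the osmotic one was 0.89 and 0.86. Each passage had 1 library per group, and whether the effect of the constructs depended on passage was not tested.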

How the data were processed

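RNA of the 8 libraries was measured as read counts per gene. According to the submitters' processing notes and the file header, the authors mapped reads with HISAT2 2.0.5 to CanFam 3.1 and deposited raw counts made with featureCounts 1.5.1 on Ensembl 92 exons, without strand (option 0). Depth was 34564103 to 46043788 counts per library.

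Normalised counts were the deposited counts divided by median-of-ratios size factors, and differences are on the log2(mean + 1) scale, which understates changes of low genes. Tests used edgeR 4.0.16 in R 4.3.3 (quasi-likelihood, TMM, summed count of at least 5, all 8 libraries) with Benjamini-Yekutieli adjustment over 19835 genes and a threshold of 0.05, and were tested on simulated data. DESeq2 1.42.0 and passage as a block were alternatives. Replicate numbers mark passages 15 and 17 in the labels, and deviations of same-numbered libraries from their group means correlated at 0.147 to 0.556 over the 6 pairs of groups, across 9951 genes, which are not independent replicates. The study describes the libraries as biological duplicates, and all came from 1 cell line. Without the block, p-values measure the spread between its 2 passages. With passage in the model, as for every adjusted p printed for a single gene, they measure the scatter left after the shared passage difference.

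The members, the 18 role lists and the tests were chosen with earlier results of these data known. Genes were named where they had a symbol and were in a role list, had the largest differences or level per kb, passed a test, lay nearest to the limit or were in the study's list of 989 genes. That list's fold changes and p-values were not used. Promoter motifs were not analysed here. Values of 2 members with a symbol are not reported here.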

Additional observations from a re-analysis of the deposited data

Results flagged for a closer look

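In 2 members, the passages gave opposite signs for 1 of the 3 differences, each from 1 library per group, so that the contrast between passages was not tested. The osmotic difference of ENSCAFG00000002142 was -0.0798 in passage 15 and 4.48 in passage 17. The difference of ENSCAFG00000023991 with Nfat5-1-siRNA was -0.0211 in passage 15 and 1.05 in passage 17.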

How the results depend on the processing

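The set held 153 genes with TMM scaling (148 of them members), 254 with total counts (126 members), 190 with a level of 200, 135 with 800 and 156 with a pseudocount of 0.5. With 1 passage or 1 library left out it held 130 to 250 genes. The highest count, 250 from passage 17 alone, shared 134 with the 156, and the lowest, 130 from passage 15 alone, shared 95. Total-count scaling moved the median difference of all 9951 genes by -0.13 for hyperosmolality, 0.18 for construct 1 and 0.25 for construct 2, and that of the members by -0.13, 0.18 and 0.25, so that relative to the other genes the members' medians moved by less than the spread between passages. No difference of a member with a symbol changed sign under these alternatives, whereas the osmotic difference of ENSCAFG00000002142 was -0.08 in passage 15 alone.

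The counts of members called moved as follows. With passage as a replicate block, 145 were called higher with hyperosmolality, 145 for construct 1 and 148 for construct 2, and between the constructs 13 were higher and 5 lower. Among named members that reached the level limit with both constructs, the block changed the call between constructs for MEST, PLPP3, AMD1 and DUSP4 only. SMPD3 had reached that limit in Nfat5-2-siRNA alone, which favoured the direction, so its call is not read as a result. With Benjamini-Hochberg adjustment the 3 counts were 146, 132 and 143, between the constructs 5 were higher, and in passage 17 24 were higher and 6 lower. DESeq2 called 111 with Nfat5-1-siRNA, 124 with Nfat5-2-siRNA, and 4 higher and 1 lower between the constructs. With no filter on low counts, 112 and 120 were called with the constructs, 10 were higher and 1 lower between them, and 5 were lower in passage 17. With filterByExpr 3 were higher and 1 lower in passage 17, where ABL2 and MEST were not called. With DESeq2's size factors in edgeR, 3 were higher between the constructs. With 1 library left out in turn, the counts were 45 to 95 for hyperosmolality, 10 to 80 for construct 1 and 33 to 95 for construct 2. Between the constructs they were 0 to 3 higher and 0 to 0 lower, and in passage 17 5 to 19 higher and 3 to 6 lower. Where this left a group with 1 library, that library was assumed to vary like the other groups. The causes of these changes were not tested.

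With 2 libraries per group, the test between constructs recovered 34% of simulated 2-fold changes, so a member that was not called is not shown to be equal between them.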

Other observations

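Of 84 genes in the study's list with 3 positive differences, 74 were members, 3 were left out by name, 6 stayed under the level of 400 and 1, TFIP11, had a difference under 0.5. Of the 6, CADM2, a cell adhesion molecule, had 3.67 and 0 normalised counts at 300 mOsm and, at 500 mOsm, 44.1 and 48.4 with Neg-siRNA, 184 and 373 for construct 1 and 229.8 and 293 for construct 2. CACNB1, a calcium channel subunit, had 34.9 and 37.7, 96.9 and 86.8, 285 and 364, and 198 and 364 in the same groups. In both genes every construct library was above every Neg-siRNA library.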
